A study of Mus musculus with 4 samples.

Results

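The 45 genes described here act in DNA repair or in the checkpoint that answers DNA damage, and all of them were found by gene symbol among the 24346 symbols listed for each library. They were chosen by name from repair pathways, with no threshold on their values, and cover 7 roles: break sensing and checkpoint signalling (7 genes), end joining (4), homologous recombination (8), the Fanconi anemia pathway (10), mismatch repair (3), nucleotide excision repair (7), and base excision with single-strand break repair (6). RNA of hair follicle stem cells (HFSCs) cultured from dorsal skin of adult C3H/HeN mice was sequenced after 10 passages (10p-HFSCs) and after 48 passages (48p-HFSCs), with 2 libraries in each group. Both groups started from CD49f+ CD34+ cells sorted by FACS, were kept in the serum-free medium CnT-PR (M-CnT), and had no genetic change or drug treatment named in the labels. The comparison asks how repair gene expression differed between a short-term and a long-term culture that both started from such sorted cells. The groups differ in passage number and in everything else that accompanied long culture, and a lower value in bulk RNA cannot be told apart as fewer cells expressing a gene or less RNA per cell.

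Cells mend DNA by separate routes that fit the kind of damage. A break through both strands is bound by the Mre11a-Rad50-Nbn complex or by the Ku proteins, and is then either copied from the sister chromatid by homologous recombination or rejoined directly by end joining. Crosslinks between strands are opened by the Fanconi anemia pathway, replication errors are corrected by mismatch repair, bulky lesions such as those of ultraviolet light are cut out by nucleotide excision repair, and oxidised bases and single-strand nicks are handled by base excision repair. The kinases Atm and Atr report damage to Chek1 and Chek2, which hold the cell cycle. In skin these routes matter because keratinocytes are exposed to ultraviolet light, and recombination genes are most used in the S and G2 phases of dividing cells.

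Expression is given in FPKM, which the paper defines as fragments scaled by exon length and by mapped fragments. As a measure per length it allows levels of different genes to be compared. Median-of-ratios factors, which compare the typical level of genes between libraries, ran from 1.00027 to 1.01115. The deposited values were thus already on nearly the same scale between libraries, and whether mapped totals alone set it is not stated. FPKM sums ran from 581516 to 719012 in 3 libraries and reached 1414953 in replicate 2 of 48p-HFSCs, which stood apart. Ratios of low values placed the relative depth of the other libraries at 71.6%, 82.9% and 46.7% of replicate 1 of 10p-HFSCs. The lowest was that of replicate 2 of 48p-HFSCs. This relative depth reflects the scaling of the values and is not a count of mapped reads. Across the 11018 genes with at least 1 FPKM in at least 2 libraries, Pearson's r between replicates was 0.981 in 10p-HFSCs and 0.950 in 48p-HFSCs, and between groups it was 0.789 to 0.837. The keratins Krt5 and Krt14 were high in all 4 libraries, whereas the sorted marker Cd34 was at 0.0925 to 0.234 FPKM and the follicle stem cell factor Lhx2 at most at 0.0241 FPKM. These 2 defining stem cell transcripts were thus near absent, while the other 9 of 11 keratinocyte and follicle markers, Krt15, Itga6 and Sox9 among them, passed the filter. Of 9 fibroblast markers, 2 passed the filter, Vim and Col1a2, and the summed list stood at 353 and 388 FPKM in 10p-HFSCs and at 2.53 and 3.32 FPKM in 48p-HFSCs, while Thy1, Lum and Dcn were listed at 0 in every library. Of 6 leukocyte markers, 3 passed, and their list summed to 7.94 and 7.51 FPKM in 10p-HFSCs and to 118 and 183 FPKM in 48p-HFSCs, with Cd3e and Tyrobp listed at 0. Melanocyte markers summed to 1.43 to 1.50 FPKM in 10p-HFSCs and 4.06 to 11.9 FPKM in 48p-HFSCs with 1 of 7 past the filter, and endothelial markers to at most 2.86 FPKM in any library with 1 of 5 past it. The part of these differences in the repair gene values was not tested.

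Repair genes were expressed at modest levels in both groups, and most of them differed little. The tested 44 ranged in mean expression over the 4 libraries from 1.53 to 36.7 FPKM, with a median of 5.08 FPKM, and the median over the 45 genes was 6.75 and 5.48 FPKM in replicates 1 and 2 of 10p-HFSCs and 5.08 and 5.20 FPKM in those of 48p-HFSCs. Only the DNA glycosylase gene Neil1 was not tested, since it was listed at 0.0505 and 0 FPKM in 10p-HFSCs and at 0 and 0.108 FPKM in 48p-HFSCs. A gene was called at a limma adjusted p under 0.05 over all 11018 genes and a difference of at least 1 on the log2(FPKM + 1) scale. The added 1 makes this a change of more than 2-fold in FPKM at the levels of most repair genes. By this rule 1 repair gene, the ligase gene Lig4, was called lower in 48p-HFSCs, which is 2.27% of the 44 against 9.15% of all tested genes, and 0 were called higher against 10.8% of all tested genes. At an adjusted p under 0.05 with no limit on size, Lig4 and the checkpoint kinase gene Chek1 were lower, 4.55% against 9.54% of all genes, and 0 were higher against 11.0%. At an unadjusted p under 0.05 the count was 12 of 44 (27.3%), of which 11 were lower, against 37.4% of all genes.

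The direction of the remaining differences leaned towards lower values. Of the 44 tested genes, 30 were below 0 and 14 above 0, against 5672 below and 5346 above over all 11018 tested genes. The median log2 difference (48p-HFSCs minus 10p-HFSCs) of the 44 was -0.17, with a range of -1.72 to 0.81. The median over all tested genes was -0.03. Both 48p-HFSC libraries lay below both 10p-HFSC libraries for 19 repair genes (43.2%), against 34.3% of all genes, and above both for 8 (18.2%), against 31.7% of all genes. Rescaling every library to the same sum (TPM) moved the median of all genes to -0.56 and that of the repair genes to -0.69, with 40 of 44 below 0, so that the repair median lay 0.12 below that of all genes in place of 0.14. The same rescaling turned the split of calls over all genes from 1189 higher and 1008 lower (54.1% higher) to 616 higher and 900 lower (40.6% higher). With transcript length and GC content corrected for within each library, 27 of 44 were below 0. The repair median was then -0.26 against -0.015 over all genes, 0.25 below it. With quantile normalization the repair median lay 0.055 below that of all genes. The standard error of a repair gene's log2 difference was 0.247 to 0.426, with a median 95% half-width of 0.71, so differences smaller than that could not be told from 0 with 2 libraries a group. Leaving out replicate 1 of 48p-HFSCs raised the number of repair genes called lower from 1 to 7 (Brca2, Chek1, Fancf, Fancm, Lig3, Lig4 and Ogg1), which is 15.9% of the 44 against 17.0% of all genes called lower in that setting, and leaving out any of the other 3 libraries lowered it to 0.

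**Figure D1:**
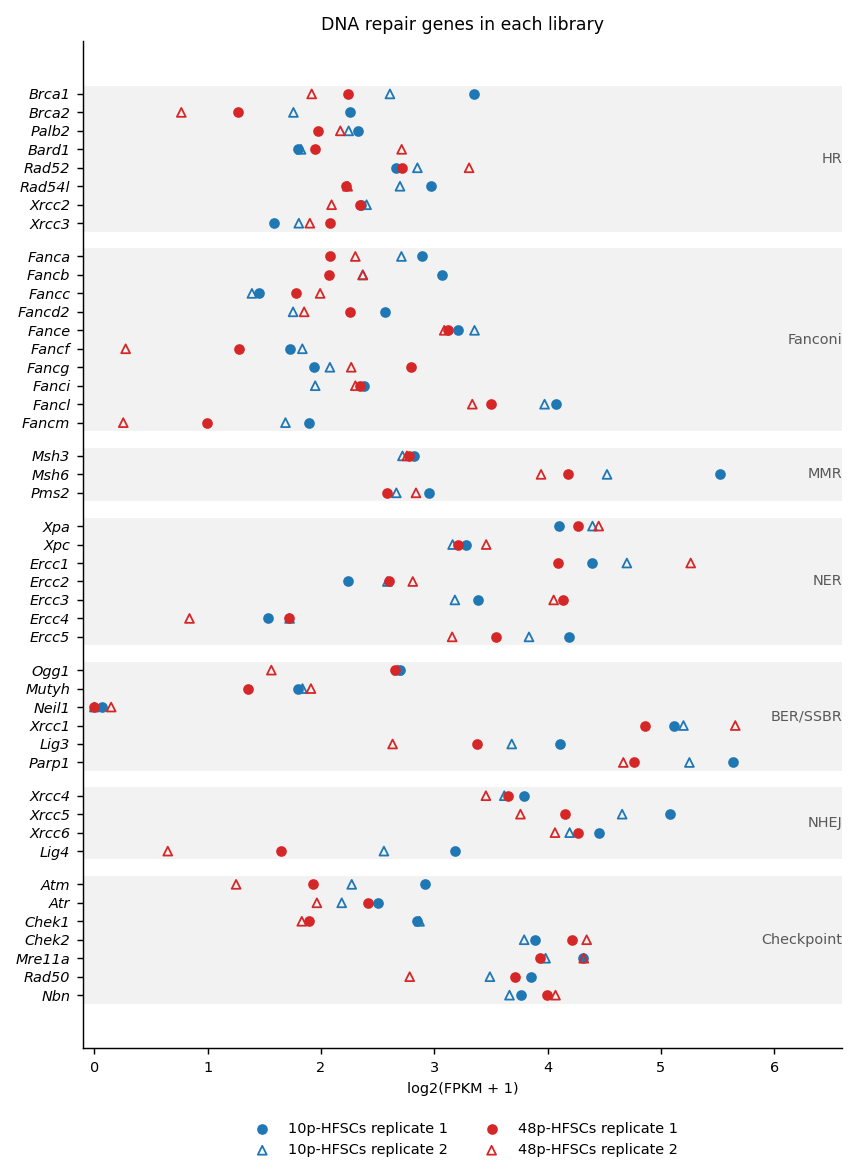
Expression of the 45 DNA repair genes in each of the 4 libraries, on a log2(FPKM + 1) axis, with 10p-HFSCs in blue and 48p-HFSCs in red, replicate 1 as circles and replicate 2 as open triangles, and genes grouped by role. Lig4, Chek1, Fancm and Brca2 show both red points to the left of both blue points, and Ercc3 shows both to the right.

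**Figure D2:**
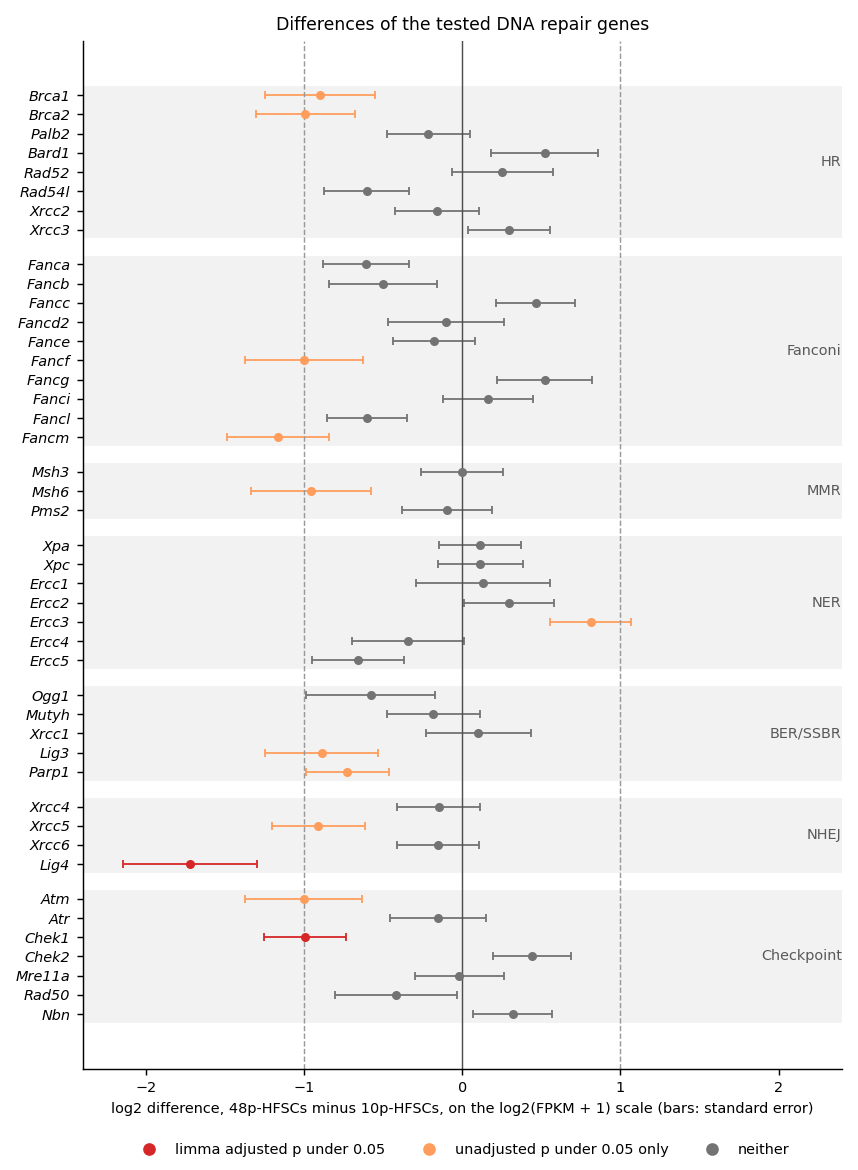
Log2 difference of each of the 44 tested genes (48p-HFSCs minus 10p-HFSCs on the log2(FPKM + 1) scale) with its standard error from limma, and dashed lines at -1 and 1. Red marks Lig4 and Chek1 with an adjusted p under 0.05, orange the 10 further genes with only an unadjusted p under 0.05, and grey the rest.

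Many repair genes are transcribed in S phase under E2F factors, and the sequence around their starts is shown for that reason, since S phase genes are set beside them further on. A RefSeq window (GRCm38.p6, from 250 bases before to 50 bases after the transcription start) was available for 39 of the 45 genes. Searching both strands for the E2F words TTTCGCGC, TTTGGCGC, TTTCCCGC and TTTGCCGC found one in 7 of the 39 (17.9%), against 2.61% of 27025 genes with such a window. The 30 bases around each match follow, 5′ to 3′ on the gene's strand, with the matching letters in capitals.
Bard1, chr1:71103163-71103192, minus strand: ccgccgctcagTTTCCCGCtcaggaagttt
Brca2, chr5:150522442-150522471, plus strand: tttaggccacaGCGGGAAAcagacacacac
Chek2, chr5:110839820-110839849, plus strand: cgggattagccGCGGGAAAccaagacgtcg
Fancg, chr4:43010335-43010364, minus strand: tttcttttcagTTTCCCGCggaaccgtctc
Msh3, chr13:92355185-92355214, minus strand: gccgtcaagTTTGGCGCGAAAtcgcagccc
Msh6, chr17:87975054-87975083, plus strand: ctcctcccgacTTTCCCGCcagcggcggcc
Xrcc6, chr15:82016312-82016341, plus strand: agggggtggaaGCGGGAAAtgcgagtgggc
The capitals in Msh3 hold 2 overlapping words, one on each strand. Matches began 209 to 46 bases before the start in 6 of these genes and 15 bases after it in Msh6. Their expression did not move as a group, with 3 log2 differences above 0 and 4 below 0, from -0.99 to 0.52. The CHR words TTTGAA and TTTAAA, elements of G2 and mitosis genes, were found in 7 of 39 windows (17.9%) against 30.6% of all windows, and the word CCAAT in 24 of 39 (61.5%) against 41.1%. The CHR and CCAAT words do not occur inside the E2F words and were counted separately. A match of letters describes the window and does not show that a factor binds there.

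Among the break sensors and checkpoint kinases, Chek1 gave the clearest difference. Chek1 (chr9:36708482-36727065, GENCODE M21 on GRCm38), the kinase that Atr activates at stalled replication forks, was measured at 6.20 and 6.31 FPKM in 10p-HFSCs and at 2.71 and 2.56 FPKM in 48p-HFSCs. Replicates of each group were nearly equal and the groups did not overlap. Its log2 difference was -0.997 ± 0.257 (SE, n = 2 per group, limma adjusted p = 0.045), just short of the size limit of 1, and its mean FPKM was 2.37-fold higher in 10p-HFSCs. With transcript length and GC content corrected for within each library, the difference was -0.82 with an adjusted p of 0.054. The adjusted p was also over 0.05 with a pseudocount of 0.1 (0.060), without the filter on low values (0.10), with TPM (0.19), and without replicate 1 of 10p-HFSCs (0.36), replicate 2 of 10p-HFSCs (0.32) or replicate 2 of 48p-HFSCs (0.062), while the difference itself was -0.97 or lower in each of these. Chek2, the kinase downstream of Atm, lay on the other side: it stood at 13.8 and 12.9 FPKM in 10p-HFSCs and at 17.6 and 19.3 FPKM in 48p-HFSCs, without overlap and without passing the test. Thus both effector kinases were detected in every library, with Chek2 above Chek1 in each.

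Atm, the kinase activated by double-strand breaks, was at 6.53 and 3.83 FPKM in 10p-HFSCs and at 2.80 and 1.38 FPKM in 48p-HFSCs. The groups did not overlap, but replicate 2 was below replicate 1 in both groups, and the difference of -1.0 ± 0.37 did not pass (adjusted p = 0.11). It was -0.60 after the length and GC correction and -0.67 without replicate 2 of 48p-HFSCs. Atr, its partner kinase for single-stranded DNA, overlapped between groups at 4.67 and 3.54 FPKM against 4.32 and 2.90 FPKM. In the complex that binds broken ends, the nuclease gene Mre11a overlapped as well, at 18.8 and 14.8 FPKM in 10p-HFSCs and 14.3 and 18.9 FPKM in 48p-HFSCs, with a difference of -0.02 ± 0.28 (adjusted p = 0.97). Its bridging subunit Rad50 was at 13.4 and 10.2 FPKM against 12.1 and 5.88 FPKM, with the lowest value in replicate 2 of 48p-HFSCs. Nbn, the subunit that brings Atm to the complex, was higher in both 48p-HFSC libraries (14.9 and 15.8 FPKM) than in both 10p-HFSC libraries (12.6 and 11.7 FPKM), by less than the test could call. Of the 7 genes of the role, 2 lay below (28.6%, against 34.3% of all genes) and 2 above (28.6%, against 31.7%) without overlap.

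End joining held the only called gene. Lig4 (chr8:9969049-9977686), the ligase that seals the rejoined ends, was at 8.09 and 4.88 FPKM in 10p-HFSCs and at 2.13 and 0.567 FPKM in 48p-HFSCs. Each 48p-HFSC library was below each 10p-HFSC library, although the replicates of both groups also differed from each other. The difference was -1.72 ± 0.43 on the log2 scale (SE, n = 2 per group, limma adjusted p = 0.040). The call was lost with a pseudocount of 0.1 (-2.39, adjusted p = 0.059), without the filter on low values (-1.72, adjusted p = 0.10), with TPM (-2.15, adjusted p = 0.071), without replicate 1 of 10p-HFSCs (-1.41, adjusted p = 0.34), without replicate 2 of 10p-HFSCs (-2.04, adjusted p = 0.20) and without replicate 2 of 48p-HFSCs (-1.22, adjusted p = 0.11). It was kept after the length and GC correction (-1.46, adjusted p = 0.027). Lig4 lies on chromosome 8, where the 565 tested genes had a median difference of -0.61 and 19.8% were called lower, against -0.03 and 9.15% over all genes, and the part of this in the Lig4 value was not tested.

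The 250 bases before the nearer of the 2 RefSeq starts of Lig4 are printed because it was the one called repair gene. They lie on the minus strand at chr8:9976312-9976561 (GRCm38.p6), inside the gene and in no annotated exon. The CHR word TTTAAA, in capitals, begins 119 bases before that start. The bases before the other start, at chr8:9977681-9977930, are not printed. That window overlaps exons of Lig4 and Abhd13 and holds none of the E2F, CHR and CCAAT words. The CHR word was thus found at only the nearer start.
Lig4: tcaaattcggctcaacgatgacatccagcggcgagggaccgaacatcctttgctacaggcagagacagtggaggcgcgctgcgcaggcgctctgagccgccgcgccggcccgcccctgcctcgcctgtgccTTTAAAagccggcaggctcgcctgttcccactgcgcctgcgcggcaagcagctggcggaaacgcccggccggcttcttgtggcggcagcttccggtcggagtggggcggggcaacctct

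The partners of Lig4 differed less. Xrcc5, the larger Ku subunit that caps broken ends, was at 32.8 and 24.2 FPKM in 10p-HFSCs and at 16.8 and 12.5 FPKM in 48p-HFSCs, a difference of -0.91 ± 0.29 without overlap that was not called (adjusted p = 0.078). Its Ku partner Xrcc6 overlapped between groups, at 20.8 and 17.3 FPKM against 18.3 and 15.7 FPKM. Xrcc4, the scaffold that holds Lig4 at the break, overlapped too, at 12.8 and 11.3 FPKM against 11.6 and 9.96 FPKM. The 2 Ku genes, whose proteins act as a pair, were thus at like levels in 48p-HFSCs, while Xrcc5 was the higher of both in 10p-HFSCs. All 4 end joining differences were below 0, with a median of -0.53. Of them 1 was called lower (25%, against 9.15% of all genes).

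In homologous recombination, Brca2 and Brca1 had the lowest differences. Brca2, which loads the recombinase onto single-stranded DNA, was at 3.79 and 2.38 FPKM in 10p-HFSCs and at 1.40 and 0.702 FPKM in 48p-HFSCs. No library of one group reached the other, and the difference of -0.99 ± 0.31 was not called (adjusted p = 0.077). Brca1, a ubiquitin ligase that promotes end resection, was at 9.21 and 5.1 FPKM against 3.72 and 2.78 FPKM, a difference of -0.90 ± 0.35 (adjusted p = 0.12). Here too the groups stayed apart, although the 10p-HFSC replicates differed from each other by more than the highest 48p-HFSC value differed from the lower of them. After the length and GC correction the differences were -0.57 for Brca2 and -0.55 for Brca1, and that of Brca1 was -0.53 without replicate 1 of 10p-HFSCs. Bard1, the obligate partner of Brca1, went the other way, from 2.47 and 2.54 FPKM in 10p-HFSCs to 2.86 and 5.55 FPKM in 48p-HFSCs, without passing the test. Palb2, which joins Brca1 to Brca2, was at 4.02 and 3.74 FPKM against 2.92 and 3.50 FPKM.

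The later steps of recombination showed the same mixture. The DNA translocase gene Rad54l was at 6.86 and 5.48 FPKM in 10p-HFSCs and at 3.67 and 3.71 FPKM in 48p-HFSCs, lower in both 48p-HFSC libraries but not called. Rad52, a strand annealing factor and the member of this role with the highest mean, was at 5.32 and 6.21 FPKM against 5.55 and 8.89 FPKM, a difference of 0.25 ± 0.32 (adjusted p = 0.59) that became -0.26 with TPM and -0.04 without replicate 2 of 48p-HFSCs. The recombinase paralogs lay close together: Xrcc2 was at 4.12 and 4.28 FPKM against 4.07 and 3.27 FPKM, and Xrcc3 at 2.00 and 2.49 FPKM against 3.22 and 2.74 FPKM. Of the 8 recombination genes, 0 were called, against 9.15% of all genes called lower and 10.8% higher. Without overlap 5 lay below (62.5%, against 34.3% of all genes) and 2 above (25%, against 31.7%). The median difference of the 8 was -0.19, or -0.002 after the length and GC correction.

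The Fanconi anemia genes held 2 low differences, of Fancm and Fancf, beside 8 smaller ones. Fancm, the translocase that anchors the core complex to chromatin, was at 2.73 and 2.22 FPKM in 10p-HFSCs and at 0.997 and 0.194 FPKM in 48p-HFSCs, a difference of -1.17 ± 0.32 that narrowly missed the limit (adjusted p = 0.053). Fancf, an adaptor subunit of that complex, was at 2.3 and 2.57 FPKM against 1.43 and 0.211 FPKM, a difference of -1.0 ± 0.37 (adjusted p = 0.11) that was -0.50 without replicate 2 of 48p-HFSCs and -1.50 without replicate 1 of 48p-HFSCs (adjusted p = 0.0096). In both genes the lowest value by far was that of replicate 2 of 48p-HFSCs, the library of least relative depth, and both 48p-HFSC values were below both 10p-HFSC values. Fancl, the ubiquitin ligase subunit of the core complex and the member with the highest mean, was at 15.8 and 14.7 FPKM against 10.3 and 9.09 FPKM, with close replicates and a difference of -0.60 ± 0.26 (adjusted p = 0.15). Fanca, another core subunit, was at 6.40 and 5.54 FPKM against 3.22 and 3.93 FPKM, and Fance at 8.25 and 9.23 FPKM against 7.69 and 7.50 FPKM. Both were lower in 48p-HFSCs without passing. Like Lig4, Fanca lies on chromosome 8, where the median difference of the tested genes was -0.61 against -0.03 over all genes. The part of this in the Fanca value was not tested. Fancc, which binds Fance, and Fancg, which binds Fanca, had higher values in both 48p-HFSC libraries, Fancc at 1.73 and 1.62 FPKM against 2.42 and 2.98 FPKM and Fancg at 2.84 and 3.22 FPKM against 5.94 and 3.81 FPKM. The ubiquitinated pair overlapped, with Fancd2 at 4.90 and 2.37 FPKM against 3.78 and 2.61 FPKM and Fanci at 4.20 and 2.86 FPKM against 4.09 and 3.94 FPKM, as did the core subunit gene Fancb on the X chromosome. Over the 10 genes the median difference was -0.34 and 0 were called, against 9.15% of all genes called lower and 10.8% higher.

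Mismatch repair was represented by 3 genes, of which 0 were called, against 9.15% of all genes called lower and 10.8% higher. Msh6, which recognises single mispaired bases, was at 44.8 and 22 FPKM in 10p-HFSCs and at 17.1 and 14.4 FPKM in 48p-HFSCs. The 48p-HFSC values were lower, but the 10p-HFSC replicates lay farther apart than the nearest values of the groups, and the difference of -0.96 ± 0.38 did not pass (adjusted p = 0.13). It was -0.46 without replicate 1 and -1.46 without replicate 2 of 10p-HFSCs. Msh3, which takes the place of Msh6 at larger loops, hardly varied, at 6.06 and 5.58 FPKM against 5.85 and 5.76 FPKM. The nuclease subunit gene Pms2 overlapped at 6.75 and 5.34 FPKM against 5.0 and 6.15 FPKM. The alternative partners Msh6 and Msh3, each with an E2F word in the window shown above, were therefore at levels nearest to each other in 48p-HFSCs.

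Nucleotide excision repair held the highest positive difference among the repair genes. Ercc3, a translocase of the transcription and repair factor TFIIH that opens DNA at a lesion, was at 9.44 and 8.07 FPKM in 10p-HFSCs and at 16.6 and 15.6 FPKM in 48p-HFSCs. Replicates agreed closely and the groups were well apart, yet the difference of 0.81 ± 0.26 was not called (unadjusted p = 0.020, adjusted p = 0.077 by limma), and after the length and GC correction it was 0.86 with an adjusted p of 0.041, still under the size limit, and with TPM it was 0.28. Ercc2, the helicase of the same factor, was at 3.73 and 5.0 FPKM against 5.08 and 6.01 FPKM, above but only just. The 2 nucleases that make the cuts had lower means in 48p-HFSCs without a call. Ercc5 was at 17.2 and 13.3 FPKM against 10.7 and 7.92 FPKM. Ercc4 overlapped at 1.89 and 2.3 FPKM against 2.3 and 0.789 FPKM, with only replicate 2 of 48p-HFSCs below both 10p-HFSC values. Ercc1, the partner of Ercc4 and the member with the highest mean here, was at 20.0 and 25.0 FPKM against 16.0 and 37.4 FPKM, and its difference of 0.13 ± 0.42 (adjusted p = 0.84) became -0.44 with TPM and -0.31 after the length and GC correction. The damage sensor Xpc and the verifier Xpa overlapped between groups, Xpc at 8.73 and 7.94 FPKM against 8.27 and 9.98 FPKM and Xpa at 16.2 and 20.0 FPKM against 18.3 and 20.9 FPKM. Of the 7 genes 5 lay above 0, with a median of 0.11 that became -0.44 with TPM, where all genes had -0.56, and -0.25 after the length and GC correction.

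In base excision and single-strand break repair, Lig3 and Parp1, both of the nick repair steps, had the lowest differences. Parp1, the enzyme that marks single-strand breaks with poly(ADP-ribose), was among the most abundant repair transcripts, at 48.6 and 37.1 FPKM in 10p-HFSCs and at 26.1 and 24.4 FPKM in 48p-HFSCs. The 2 groups did not overlap, and the difference of -0.73 ± 0.26 was not called (adjusted p = 0.10). Lig3, the ligase of this route, was at 16.2 and 11.8 FPKM against 9.37 and 5.20 FPKM, a difference of -0.89 ± 0.36 (adjusted p = 0.13) that was -0.55 after the length and GC correction and -0.52 without replicate 2 of 48p-HFSCs. Xrcc1, the scaffold that carries Lig3 to the nick, did not go with it, at 33.6 and 35.7 FPKM against 27.9 and 49.4 FPKM, and its difference of 0.10 ± 0.33 (adjusted p = 0.85) became -0.47 with TPM, -0.03 with quantile normalization and -0.30 without replicate 2 of 48p-HFSCs. Ogg1, which removes oxidised guanine, was at 5.47 and 5.40 FPKM against 5.28 and 1.95 FPKM, and only replicate 2 of 48p-HFSCs was far from the other libraries. Mutyh, which removes adenine paired with oxidised guanine, overlapped at 2.47 and 2.57 FPKM against 1.56 and 2.76 FPKM. The 5 tested genes had a median difference of -0.58, and 0 of them were called, against 9.15% of all genes called lower and 10.8% higher.

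Replicate 2 was lower than replicate 1 for long repair transcripts in both groups. In the 5 tested repair genes with a transcript over 6000 bases (Brca1, Brca2, Fancm, Atm and Atr), the median of replicate 2 minus replicate 1 on the log2 scale was -0.50 in 10p-HFSCs and -0.50 in 48p-HFSCs, and the median difference between groups was -0.99. For the 1342 tested genes of that length the same medians were -0.29, -0.33 and -0.36. In the 7 repair genes of at most 2000 bases they were 0.11, 0.18 and -0.15. After the length and GC correction the group median of the 5 long genes was -0.57, that of the 1342 genes was -0.001, and that of the 7 short genes was -0.46. Across the 44 repair genes, Spearman's rho between length and the replicate difference was -0.66 in 10p-HFSCs and -0.28 in 48p-HFSCs, and between length and the group difference -0.36, or -0.02 after the correction. These are correlations across genes that share 4 libraries, and genes are not independent replicates. The correction fits length and GC content over all genes in each library. The median near 0 of the 1342 genes was thus fixed in advance, and the fall in rho is no test of a cause. In addition, 19 of the 45 genes share exon bases with another protein-coding gene, 18 of them on the opposite strand, among them Fancf, Msh6, Lig3 and Ercc1, and since the strand setting of the counting was not stated their values may include reads of the neighbour.

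**Figure D3:**
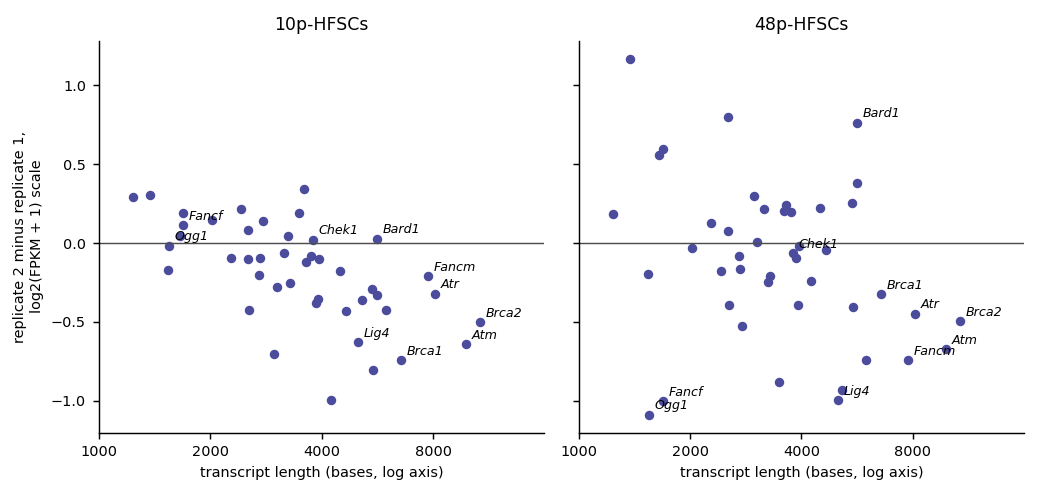
Replicate 2 minus replicate 1 on the log2(FPKM + 1) scale against transcript length (bases, log axis) for the 44 tested repair genes, in 10p-HFSCs (left) and 48p-HFSCs (right). The 5 genes over 6000 bases lie below 0 in both groups, and Fancf, Ogg1 and Lig4 lie near -1 in 48p-HFSCs.

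Beyond the 45 genes, 92 other repair genes were listed by role and 90 of them tested. Of these 12 were called lower (13.3%, against 9.15% of all genes) and 1 higher (1.11%, against 10.8%) in 48p-HFSCs, with a median difference of -0.18, beside 1 lower and 0 higher among the 44. The 10 with the largest differences among those called included 2 that act with Atr and Chek1: the Atr activator Topbp1 (36.0 and 26.6 FPKM against 12.4 and 9.43 FPKM, log2 difference -1.44 ± 0.29) and the Chek1 adaptor Clspn (11.7 and 7.73 FPKM against 3.16 and 2.41 FPKM, -1.48 ± 0.31). The adjusted p values were 0.022 and 0.026. Rnf168, a ubiquitin ligase that marks chromatin at breaks, had the largest difference of these at -2.24 ± 0.53 (adjusted p = 0.035). Factors that process recombining DNA were among them as well, with the resection nucleases Exo1 at -1.62 and Dna2 at -1.25 and the junction resolvase Gen1 at -1.33. The others were the uracil glycosylase gene Ung at -1.89, the end joining polymerase gene Polm at -1.85, the TFIIH subunit gene Gtf2h3 at -1.38 and the alkylation repair gene Alkbh2 at -1.30. The one called higher, Smug1, a second uracil glycosylase, was at 4.92 and 5.91 FPKM in 10p-HFSCs and at 13.8 and 12.1 FPKM in 48p-HFSCs (1.12 ± 0.27, adjusted p = 0.036), and it is named because it was the only one, after its values were seen.

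Proliferation genes are given beside these because several repair genes follow the cell cycle. Of 12 S phase genes, 7 were called lower (58.3%, against 9.15% of all genes) and 0 higher in 48p-HFSCs, with a median difference of -1.12. They were the sliding clamp gene Pcna (-1.18, adjusted p = 0.046), the replicative helicase genes Mcm2 (-1.28, adjusted p = 0.026), Mcm3, Mcm4, Mcm5 and Mcm7, and Tyms. Of 10 genes of G2 and mitosis, 0 were called in either direction by limma and 2 had an unadjusted p under 0.05, with a median of -0.24. Mki67 was at 71.6 and 57.7 FPKM in 10p-HFSCs and at 35.8 and 39.6 FPKM in 48p-HFSCs (-0.76, adjusted p = 0.092), whereas Cdk1 was at 50.4 and 47.8 FPKM against 51.1 and 105 FPKM (0.57, adjusted p = 0.33). By cell counts and BrdU uptake, the paper reported that proliferation held or rose during long-term culture. The part of proliferation in the repair gene values was not tested.

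**Figure D4:**
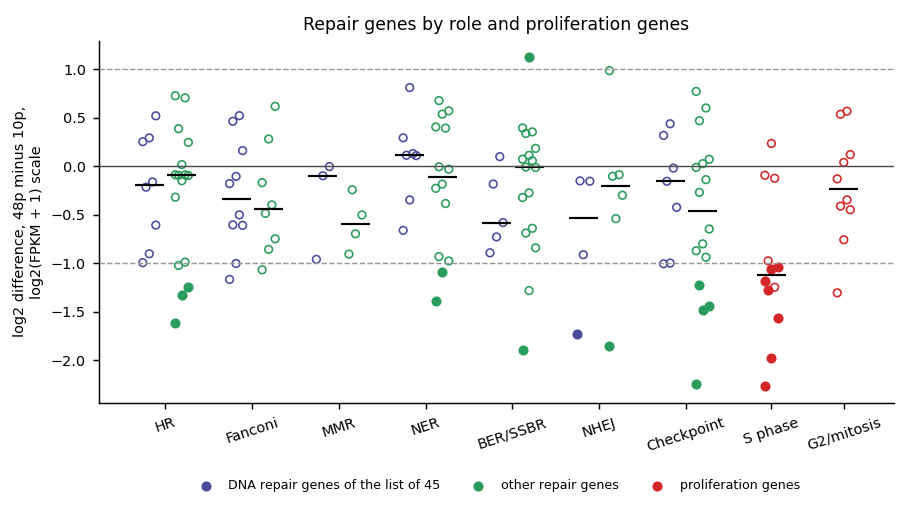
Log2 difference (48p-HFSCs minus 10p-HFSCs on the log2(FPKM + 1) scale) of each tested repair gene of the list of 45 (blue) and of the other repair genes (green) by role, and of S phase and G2 or mitosis genes (red). Filled points were called, horizontal bars are medians and dashed lines mark -1 and 1, and 7 S phase genes lie below -1 as filled points while Lig4 is the only filled blue point.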

How the data were processed

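RNA-seq libraries of 10p-HFSCs and 48p-HFSCs (2 each) were compared. Per the labels, total RNA was used with a stranded mRNA kit. The authors aligned reads to mm10 and deposited FPKM values per gene symbol. Their processing notes name TopHat2 2.1.1, Bowtie2 2.2.8, SAMtools 0.1.18 and Cuffdiff 2.2.1, whereas the methods name other Bowtie2 and SAMtools versions and Cufflinks. The gene annotation and strand setting are not given in the sources used here. FPKM values hold no read totals, so no counting interval or floor is given. The most common ratio between values under 0.3 FPKM gave relative depth.

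FPKM values were log2-transformed with a pseudocount of 1, without further scaling between libraries. The 11018 genes with at least 1 FPKM in at least 2 libraries were fitted with limma 3.58.1 in R 4.3.3. The fit used lmFit, eBayes with a trend, and Benjamini-Hochberg adjustment over all genes. Genes were called where the adjusted p was under 0.05 and the log2 difference reached 1 in size. For a single gene, the smallest two-sided exact permutation p with 2 against 2 is 0.333. The labels do not say that libraries came from separate animals or cultures, so p-values measure only the spread between these libraries, which may be technical. The fit was tested on simulated data.

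Every repair gene of the list could be named, with log2 differences for those with an unadjusted p under 0.05 and, in each role, those of highest mean or largest difference. Of other repair genes, the 10 largest called differences were named, and of proliferation genes Mki67, Pcna, Mcm2, Cdk1 and those called. The 45 genes and the other lists were picked by name, but with earlier results of these data known. Positions, lengths and GC content came from GENCODE M21 (96.3% of tested genes, all 45 repair genes) and start windows from RefSeq (GRCm38.p6). Alternatives were a pseudocount of 0.1, other filters, TPM, median-of-ratios and quantile scaling, a constant variance prior, a replicate block, a length and GC correction by splines with 4 degrees of freedom each, no limit on the size of the difference, and leaving out each library.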

Additional observations from a re-analysis of the deposited data

How the results depend on the processing

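The number of repair genes called higher was 0 under every alternative. The number called lower was 1, and it was 0 with a pseudocount of 0.1, without the filter on low values and with TPM, 2 with quantile normalization (Fancm and Lig4), 2 without a limit on size (Chek1 and Lig4), and 0 to 7 when 1 library was left out, where the lone library of a group was assumed to vary like the others. It stayed at 1 with a mean FPKM of at least 1, median-of-ratios scaling, a constant variance prior and the length and GC correction. The 2 with quantile normalization are 4.55% of the 44, against 11.4% of all genes called lower in that setting. The median-of-ratios factors ran only from 1.00027 to 1.01115 over the 4 libraries. That scaling therefore left the values almost unchanged, and its result is no separate check of the main fit. Replicate numbers are shared by the groups, but with 2 pairs nothing shows that they mark a shared batch. The replicate deviations of both groups correlated across genes at r = 0.408. With the replicate block 4 repair genes were called lower (Atm, Fancf, Fancm and Lig4), which is 9.09% of the 44 against 13.6% of all genes. Of the 44, 12 had an adjusted p under 0.05, and 3110 genes were called in all in place of 2197. The length and GC correction with the replicate block gave 2 (Fancf and Lig4), 4.55% against 12.2% of all genes. Over all genes, calls fell to 35 higher and 140 lower without replicate 1 of 10p-HFSCs and to 36 higher and 146 lower without replicate 2 of 10p-HFSCs, and numbered 1936 higher and 1875 lower without replicate 1 of 48p-HFSCs. For the 17 repair genes whose log2 difference is given, 208 of 238 alternatives kept direction and call, 6 lost a call (all of Lig4, the only gene past both limits), 10 gained one and 14 changed sign. Signs changed only for differences near 0. Rad52 became -0.26 with TPM. Ercc1 became -0.44 with TPM and -0.31 with the length and GC correction, with and without the block. Xrcc1 became -0.47 with TPM and -0.028 with quantile normalization. Mre11a became 0.29 with the length and GC correction, with and without the block. When 1 library was left out, Rad52 ranged from -0.044 to 0.55, Ercc1 from -0.45 to 0.72, Xrcc1 from -0.30 to 0.50 and Mre11a from -0.21 to 0.17. The causes were not tested. Low values were least certain in replicate 2 of 48p-HFSCs, where Fancf, Fancm and Lig4 had their lowest values. Its relative depth was 46.7% of that of replicate 1 of 10p-HFSCs.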

Other observations

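Genes that tolerate or directly reverse DNA damage are a group outside the routes described above. Of 9 tested, 1 was called lower in 48p-HFSCs (11.1%, against 9.15% of all genes), Alkbh2, which reverses alkylated bases, and 0 were called higher (against 10.8%). Of the log2 differences 5 were above 0 and 4 below 0, with a median of 0.34, or 0.17 after the length and GC correction, against -0.03 over all genes. The alkylguanine transferase gene Mgmt was at 29.3 and 40.3 FPKM in 10p-HFSCs and at 41.9 and 83.0 FPKM in 48p-HFSCs, a difference of 0.76 ± 0.39 that did not pass (adjusted p = 0.21). Alkbh3, a second dealkylating enzyme, was at 5.37 and 7.17 FPKM against 8.66 and 10.3 FPKM, opposite in sign to Alkbh2 and not called (0.53, adjusted p = 0.23, and 0.17 after the correction). Among translesion genes, the scaffold Rev1 was at 7.26 and 7.94 FPKM against 10.6 and 13.5 FPKM (0.59, adjusted p = 0.17), and the polymerase gene Polh at 14.0 and 9.76 FPKM against 8.91 and 6.25 FPKM (-0.58, adjusted p = 0.23). Mgmt, Alkbh3, Rev1 and Polh were chosen after their values were seen.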
